A study of Rattus norvegicus with 10 samples.

Results

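Fos, Fosb, Fosl1, Fosl2, Jun, Junb, Jund, Egr1, Egr2 and Egr3 are the Fos, Jun and Egr immediate early genes examined here in cultured rat heart cells, chosen by their gene symbols in the deposited count table and not by their values. All 10 were found among the 28522 symbols of the table, and all 10 had enough counts to be among the 13869 genes tested. RNA was sequenced from 10 libraries of primary cells of newborn rats aged 1 to 3 days, dissociated by enzymes and separated on a Percoll density gradient. Cardiomyocytes gave 3 libraries in serum-free medium and 3 with phenylephrine added, and cardiac fibroblasts gave 2 of each, which makes 4 groups. Phenylephrine, an agonist of alpha-1 adrenergic receptors, was given at 10 µM. No transgene or deletion is named for any group. All cultures were moved to serum-free medium 24 h after plating, so the untreated groups had been deprived of serum as well. Fibroblasts were used at passage 2 and cardiomyocytes without passaging, so cell type and time in culture cannot be told apart. How long the drug was left on the cells, and whether the libraries of a group came from separate cultures or animals, are not given in the sources used here; the p-values measure the spread between these libraries, which may be technical.

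Immediate early genes are switched on in the first wave after a growth stimulus, without new protein synthesis, and usually return to baseline soon afterwards. Fos and Jun proteins are basic leucine zipper factors that pair with each other as AP-1, and a Fos protein needs a Jun partner to bind DNA. Egr proteins are zinc finger factors that bind GC-rich sites. In cultured newborn rat cardiomyocytes phenylephrine is a classical hypertrophic stimulus, and brief induction of Fos and Egr1 is part of the textbook account of the early response.

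The promoters of these genes differ in the motifs they hold. RefSeq start regions on the GRCr8 build, from 250 bases before to 50 bases after the gene start, were found for 7 of the 10 genes (Fosb, Fosl1, Fosl2, Junb, Jund, Egr1 and Egr2). Both strands were searched for 6 motifs. They were the CArG box bound by serum response factor, the AP-1 site TGACTCA, the cyclic AMP response element TGACGTCA, the core TGACG of that element (which also lies within each full match), the Egr site GCGNGGGCG and the TATA box TATAAA. The 4 promoters below belong to the gene whose drug response differed between the cell types (Egr2), to the Fos relatives that stood on opposite sides of the cell type comparison (Fosl1 and Fosl2), and to the gene with the most matches (Jund). They lie at chr20:21054392-21054691 on the minus strand (Egr2), chr1:212183635-212183934 on the plus strand (Fosl1), chr6:30039220-30039519 on the minus strand (Fosl2) and chr16:18769722-18770021 on the minus strand (Jund). Capitals mark matches to any of the 6 motifs.
Egr2: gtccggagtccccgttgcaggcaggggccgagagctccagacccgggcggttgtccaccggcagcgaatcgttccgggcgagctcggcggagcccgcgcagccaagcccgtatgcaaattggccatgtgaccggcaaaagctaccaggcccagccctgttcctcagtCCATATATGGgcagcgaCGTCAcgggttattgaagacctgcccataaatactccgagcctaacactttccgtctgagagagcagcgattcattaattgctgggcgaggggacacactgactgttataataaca
Fosl1: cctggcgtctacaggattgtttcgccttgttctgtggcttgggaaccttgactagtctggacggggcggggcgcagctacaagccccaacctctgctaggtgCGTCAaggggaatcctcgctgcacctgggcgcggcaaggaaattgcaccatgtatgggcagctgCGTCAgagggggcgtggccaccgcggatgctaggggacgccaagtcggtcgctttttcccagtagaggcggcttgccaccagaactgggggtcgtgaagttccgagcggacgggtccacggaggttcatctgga
Fosl2: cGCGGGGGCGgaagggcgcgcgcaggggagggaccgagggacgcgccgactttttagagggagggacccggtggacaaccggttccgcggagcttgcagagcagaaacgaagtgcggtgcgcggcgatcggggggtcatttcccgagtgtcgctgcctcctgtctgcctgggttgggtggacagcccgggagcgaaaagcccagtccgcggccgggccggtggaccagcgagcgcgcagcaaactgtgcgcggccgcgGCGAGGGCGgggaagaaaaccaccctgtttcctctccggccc
Jund: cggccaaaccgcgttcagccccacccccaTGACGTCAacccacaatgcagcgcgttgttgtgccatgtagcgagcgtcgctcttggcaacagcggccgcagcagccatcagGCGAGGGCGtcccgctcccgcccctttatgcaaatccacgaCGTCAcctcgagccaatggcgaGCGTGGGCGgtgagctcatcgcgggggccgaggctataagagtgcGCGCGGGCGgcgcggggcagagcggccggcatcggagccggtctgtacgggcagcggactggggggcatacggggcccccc
The capitals in the Egr2 promoter are a CArG box at -83 to -74 from the gene start and a core on the opposite strand at -66 to -62. Egr1 has a CArG box and a core at those same positions, and a further CArG box at -105 to -96. A CArG box was present in 1.64% of all 33469 RefSeq promoters of this length. Of the 7 promoters, only those of Egr1 and Egr2 held any. Fosl1 has cores at -148 to -144 and at -84 to -80. A core was found in 5 of the 7 (Fosl1, Junb, Jund, Egr1 and Egr2) against 21.2% of all promoters. Egr sites were found in Fosl2 (2) and Jund (3) against 4.98% of all promoters. Jund also held the full response element, which 1.83% of promoters hold. The letters TATAAA were found in Junb at -49 to -44 and, on the opposite strand, in Fosb at -180 to -175, against 14.2%. The AP-1 site was found in none of the 7 and in 4.63% of all. A match is a description of letters in this window and not evidence of binding.

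Library totals ran from 18048944 to 22794744 counts. In cardiomyocytes, 2 libraries stood apart from the others of their group: replicate 2 in serum-free medium and replicate 1 with phenylephrine. Chi-square per degree of freedom over genes was 17.5 and 18.1 between the first of these and its partners, and 3.54 between those partners; it was 14.7 and 18.1 for the second, and 2.58 between its partners. The 2 fibroblast libraries in serum-free medium also differed, at 11.7, against 2.12 for the pair with phenylephrine, and with 2 libraries neither can be said to stand apart. The summed level of 8 fibroblast markers was also highest in these libraries. It was 6380, 11736 and 6979 CPM (counts per 1000000 library counts, with library totals scaled by the TMM method) in untreated cardiomyocytes and 14832, 8840 and 8744 with phenylephrine, against 39153 to 56007 in fibroblasts. The labelled cell types were borne out by 8 cardiomyocyte markers, summed at 41194 to 51249 CPM in cardiomyocytes and 548 to 615 in fibroblasts. Results on the drug are therefore given with and without the 2 libraries. In these bulk cultures, fewer cells of a type and less RNA per cell cannot be told apart.

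Within the Fos and Jun families the cell types differed in opposite directions from gene to gene. In serum-free medium, Fosl1 and Jun were higher in cardiomyocytes, Fosl2, Junb, Egr1, Egr2 and Egr3 were higher in fibroblasts, and Fos, Fosb and Jund did not pass the test. The test was edgeR's quasi-likelihood test with Benjamini-Hochberg adjustment over all 13869 genes, and a call is an adjusted p below 0.05. With 7 of 10 called, these genes differed about as often as genes in general, of which 66.1% were called, 34.5% higher and 31.7% lower. The libraries of the 2 groups did not overlap for 9 of the 10, against 77.0% of all genes. The median log2 difference of the 10 was -0.20, against 0.02 over all genes tested.

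**Figure D1:**
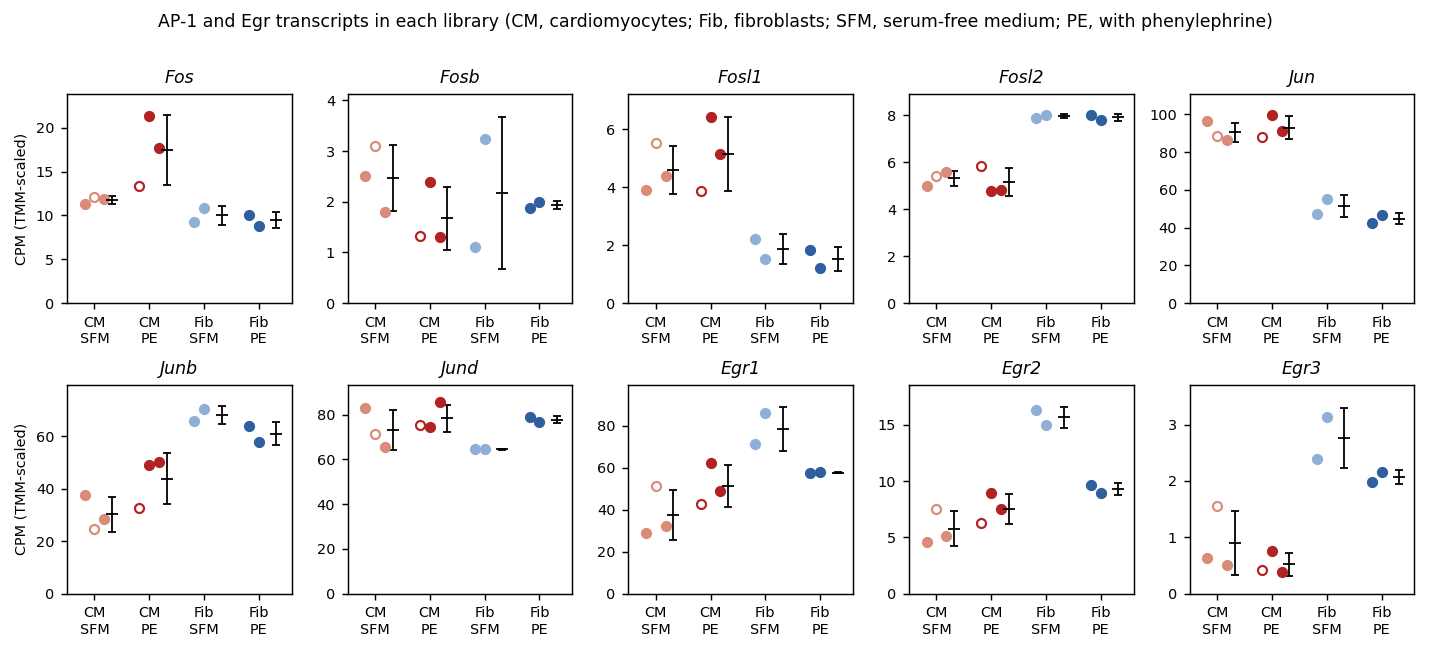
Level of each gene in each library, in CPM after TMM scaling, by group; the black dash and bar are the mean and SD, and open circles are the 2 cardiomyocyte libraries that stood apart. Jun reads 86.7 CPM or more in all 6 cardiomyocyte libraries and 55.4 or less in all 4 fibroblast libraries, while Egr2 and Egr3 are highest in fibroblasts in serum-free medium.

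Among the Jun proteins, which can pair with themselves or with Fos proteins, Jun and Junb ran in opposite directions. Jun read 96.3, 88.6 and 86.7 CPM in cardiomyocytes in serum-free medium and 47.3 and 55.4 CPM in fibroblasts. Its level was 1.76-fold higher in cardiomyocytes (log2 difference 0.82 ± 0.087 SE, edgeR adjusted p = 6.42e-06). With phenylephrine it read 87.9, 99.7 and 91.2 CPM in cardiomyocytes and 42.7 and 46.8 CPM in fibroblasts, a 2.08-fold difference (log2 1.06 ± 0.089, adjusted p = 9.63e-07). Every cardiomyocyte library was above every fibroblast library, and the 2 cardiomyocyte groups overlapped each other. Junb, a weaker activator than Jun on many promoters, read 37.6, 24.5 and 28.6 CPM in cardiomyocytes in serum-free medium against 65.7 and 70.4 CPM in fibroblasts. It was 2.25-fold lower in cardiomyocytes (log2 -1.17 ± 0.20, adjusted p = 0.000812). With phenylephrine the cardiomyocyte libraries read 32.5, 48.9 and 50.0 CPM and the fibroblast libraries 64.0 and 57.8 CPM. The Junb libraries still did not overlap, and the log2 difference was -0.47 ± 0.20 (adjusted p = 0.0686); without the 2 libraries that stood apart it was -0.30 ± 0.10 and passed the test (adjusted p = 0.0190). With all libraries, DESeq2 (adjusted p = 0.0314) and limma-voom (adjusted p = 0.0320) both called it. Jund, the Jun protein kept at a steady level in many resting cells, had the narrowest range of the 3 over the 10 libraries. It read 83.0, 71.3 and 65.4 CPM in cardiomyocytes and 64.7 and 64.4 CPM in fibroblasts in serum-free medium (adjusted p = 0.116). With phenylephrine it read 75.3, 74.4 and 85.4 CPM against 78.9 and 76.5 CPM (log2 0.01, 95% interval -0.20 to 0.22).

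Of the Fos proteins, the short relatives Fosl1 (Fra-1) and Fosl2 (Fra-2), which lack the strong activation domain of Fos, also differed in opposite directions. Fosl1 read 3.91, 5.51 and 4.38 CPM in cardiomyocytes in serum-free medium and 2.23 and 1.51 CPM in fibroblasts. It was 2.44-fold higher in cardiomyocytes (log2 1.29 ± 0.28, edgeR adjusted p = 0.00159). With phenylephrine it read 3.87, 6.41 and 5.16 CPM against 1.82 and 1.22 CPM, 3.36-fold higher (log2 1.75 ± 0.29, adjusted p = 0.000246). All 6 cardiomyocyte libraries were above all 4 fibroblast libraries. Fosl2 read 4.97, 5.41 and 5.57 CPM in cardiomyocytes and 7.89 and 8.02 CPM in fibroblasts in serum-free medium, 1.50-fold lower in cardiomyocytes (log2 -0.58 ± 0.13, adjusted p = 0.00183). With phenylephrine it read 5.83, 4.78 and 4.82 CPM against 8.02 and 7.79 CPM, 1.54-fold lower (log2 -0.62 ± 0.13, adjusted p = 0.00135). No cardiomyocyte library reached the fibroblast range in either medium.

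Fos itself, the founding member, separated the cell types only partly. It read 11.3, 12.1 and 11.9 CPM in cardiomyocytes and 9.26 and 10.8 CPM in fibroblasts in serum-free medium, ranges that did not overlap but differed by log2 0.23 ± 0.17 (edgeR adjusted p = 0.251). With phenylephrine it read 13.4, 21.3 and 17.7 CPM in cardiomyocytes against 10.1 and 8.79 CPM in fibroblasts and was 1.85-fold higher in cardiomyocytes (log2 0.89 ± 0.17, adjusted p = 0.000802). The cardiomyocyte libraries were all above the fibroblast libraries in both media. Fosb, a full-length Fos relative, was low throughout, at 22 to 62 counts a library. It read 2.51, 3.10 and 1.79 CPM in cardiomyocytes and 1.11 and 3.23 CPM in fibroblasts in serum-free medium, and 1.33, 2.39 and 1.30 CPM against 1.88 and 1.99 CPM with phenylephrine. The Fosb groups overlapped in both media, and its locus overlaps another annotated gene, LOC103691049, in RefSeq, so reads of the pair may not be separable.

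The 3 Egr genes were all lower in cardiomyocytes in serum-free medium. Egr1, the best known of the family, read 29.0, 51.4 and 32.4 CPM in cardiomyocytes against 71.3 and 86.1 CPM in fibroblasts, 2.10-fold lower (log2 -1.07 ± 0.24, edgeR adjusted p = 0.00361). Egr2, also known as Krox20 and needed in mice for myelination by Schwann cells, read 4.63, 7.55 and 5.10 CPM against 16.3 and 15.0 CPM, 2.74-fold lower (log2 -1.45 ± 0.19, adjusted p = 3.77e-05). Egr3, known from muscle spindle development in mice, read 0.627, 1.55 and 0.510 CPM against 2.38 and 3.13 CPM, 3.15-fold lower (log2 -1.65 ± 0.38, adjusted p = 0.00235). No cardiomyocyte library reached a fibroblast library for any of the 3. The highest cardiomyocyte value of each was replicate 2, the library that stood apart. Without the 2 libraries that stood apart, all 3 were still called. Egr3 rested on 12 to 60 counts a library in serum-free medium.

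With phenylephrine the Egr genes parted. Egr1 read 42.7, 62.3 and 48.9 CPM in cardiomyocytes and 57.6 and 58.0 CPM in fibroblasts, with overlapping groups and a log2 difference of -0.17 (95% interval -0.72 to 0.38, edgeR adjusted p = 0.553). Egr2 read 6.26, 8.91 and 7.48 CPM against 9.64 and 8.90 CPM, overlapping by a narrow margin (log2 -0.30, 95% interval -0.73 to 0.14, adjusted p = 0.207). Egr3 read 0.424, 0.760 and 0.386 CPM against 1.98 and 2.16 CPM and was 3.95-fold lower in cardiomyocytes (log2 -1.98 ± 0.44, adjusted p = 0.00193). In all, 5 of the 10 genes were called with phenylephrine, Fos, Fosl1 and Jun higher and Fosl2 and Egr3 lower, against 65.0% of all genes (33.7% higher and 31.2% lower). The groups did not overlap for 6 of the 10, against 79.3% of all genes. The comparisons of the 2 media share no library, but an effect that passes in one and not in the other does not show that they differ; the difference is tested further on.

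**Figure D2:**
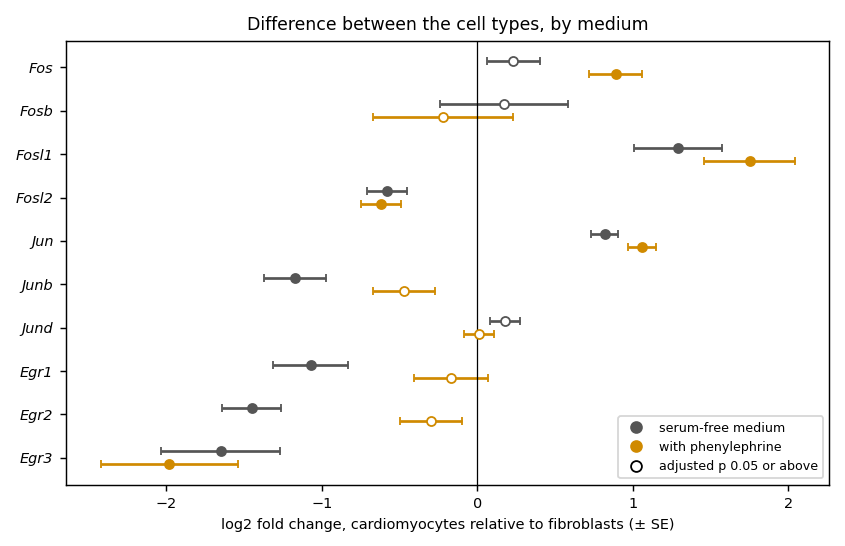
Log2 fold change of cardiomyocytes relative to fibroblasts (± SE) for each gene, in serum-free medium (grey) and with phenylephrine (orange); filled points passed the edgeR test. Jun and Fosl1 lie to the right of 0 and Fosl2 and Egr3 to the left in both media, whereas Junb, Egr1 and Egr2 lie nearer to 0 with phenylephrine.

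In cardiomyocytes, none of the 10 genes was called between phenylephrine and serum-free medium with all libraries in the fit, against 3.63% of all genes. At an unadjusted p below 0.05, edgeR gave 2 of the 10, Fos and Junb, against 22.0% of all genes. DESeq2 called those 2 beside 7.41% of all genes, and limma-voom called none beside 4.75%. Fos averaged 11.8 ± 0.413 CPM (SD, n = 3) without and 17.5 ± 3.97 CPM (SD, n = 3) with the drug, a log2 difference of 0.57 ± 0.15 (edgeR adjusted p = 0.0598). Fos was the only one of the 10 whose cardiomyocyte groups did not overlap, which 23.0% of all genes did. Junb averaged 30.2 ± 6.68 and 43.8 ± 9.83 CPM (log2 0.53 ± 0.19, adjusted p = 0.145). Egr1 averaged 37.6 ± 12.0 and 51.3 ± 9.97 CPM (log2 0.45 ± 0.22, adjusted p = 0.272). Egr2 averaged 5.76 ± 1.57 and 7.55 ± 1.33 CPM (log2 0.40 ± 0.18, adjusted p = 0.233). For Egr1 and Egr2, the overlap came from untreated replicate 2, the only untreated library that reached the treated range; the lowest treated value was replicate 1.

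Without the 2 libraries that stood apart, 2 libraries a group remained and Fos, Junb, Egr1 and Egr2 were all called higher with phenylephrine. The log2 changes were 0.75 ± 0.11 for Fos (edgeR adjusted p = 9.63e-05), 0.59 ± 0.11 for Junb (0.00152), 0.85 ± 0.13 for Egr1 (0.00110) and 0.75 ± 0.14 for Egr2 (0.000680). That setting also called many more genes in general, 3486 of 13786 tested (25.3%) against 503 of 13869. Leaving out the libraries least like their partners narrows the spread by construction. The p-values are thus likely too small here and wherever both libraries are left out. Leaving out serum-free replicate 2 alone called Fos, Egr1 and Egr2 beside 17.1% of all genes, and leaving out phenylephrine replicate 1 alone called Fos and Junb beside 7.83%. Leaving out any other cardiomyocyte library called none of the 10. Fibroblast markers were highest in both of these libraries, at the values given above. Smooth muscle markers summed to 2775 to 4858 CPM without and 4894 to 5325 CPM with the drug, the highest untreated value again being replicate 2, and 1 of the 8 was called. Endothelial markers summed to 57.2 to 70.2 and 61.6 to 91.6 CPM, with 1 of 6 tested called, and epicardial markers to 210 to 248 and 169 to 233 CPM, with none called. The part of any of these cells in the result was not tested.

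The other 6 genes gave no call in cardiomyocytes in either setting. Jun averaged 90.5 ± 5.11 and 93.0 ± 6.11 CPM, and its interval was the tightest of the 10 (log2 0.04, 95% interval -0.13 to 0.20). Its sign turned to -0.01 when libraries were scaled by total count alone. Jund (log2 0.10 ± 0.085), Fosl1 (0.17 ± 0.22) and Fosl2 (-0.05 ± 0.12) had overlapping groups as well. The 2 genes of lowest count had the widest errors, Fosb at log2 -0.55 ± 0.38 and Egr3 at -0.74 ± 0.46. Without the 2 libraries that stood apart, the Egr3 difference was -0.00 ± 0.43.

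In fibroblasts, where alpha-1 receptors are generally held to be scarcer, none of the 10 genes was called with all libraries in the fit, against 3.83% of all genes. At an unadjusted p below 0.05, edgeR gave 2 of the 10, Jund and Egr2, against 17.9% of all genes. DESeq2 and limma-voom each called Egr2, beside 5.91% and 4.06% of all genes. Egr2 averaged 15.7 ± 0.946 CPM (SD, n = 2) without and 9.27 ± 0.524 CPM (SD, n = 2) with phenylephrine, a log2 difference of -0.76 ± 0.21 (edgeR adjusted p = 0.0704). Egr1 averaged 78.7 ± 10.5 and 57.8 ± 0.284 CPM (log2 -0.45 ± 0.26, adjusted p = 0.426). Egr3 averaged 2.75 ± 0.529 and 2.07 ± 0.124 CPM (log2 -0.41 ± 0.38, adjusted p = 0.632). Jund averaged 64.6 ± 0.186 and 77.7 ± 1.65 CPM (log2 0.27 ± 0.10, adjusted p = 0.201). The libraries did not overlap for 6 of the 10, with Jund above and Jun, Junb, Egr1, Egr2 and Egr3 below their untreated values. With 2 libraries a group this held for 54.4% of all genes. Without the 2 cardiomyocyte libraries that stood apart, which enter the fibroblast test through the shared estimate of spread and the set of genes tested, Egr1 (log2 -0.45 ± 0.12, adjusted p = 0.0377) and Egr2 (-0.76 ± 0.12, adjusted p = 0.000246) were called lower, beside 14.9% of all genes. Fibroblast markers summed to 39153 and 46346 CPM without and 56007 and 53863 CPM with the drug (1 of 8 called), and smooth muscle markers to 11344 to 11357 and 8688 to 8919 CPM (none called); their part in the result was not tested. With the fibroblast libraries fitted alone, Jund (adjusted p = 0.0254) was called higher and Egr1 (0.0134) and Egr2 (0.00240) lower, beside 10.2% of all genes.

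The drug response of Egr2 differed between the cell types. The difference of the log2 responses, cardiomyocytes minus fibroblasts, was 1.16 ± 0.28 (edgeR adjusted p = 0.0477, 95% interval 0.55 to 1.76), and Egr2 was the only one of the 10 genes called, against 3.25% of all genes. The mean levels ran from 5.76 to 7.55 CPM in cardiomyocytes and from 15.7 to 9.27 CPM in fibroblasts, so that the cell types lay closer together with the drug than without it. The order of the libraries was fibroblasts in serum-free medium above all others, then fibroblasts with phenylephrine and the 2 cardiomyocyte groups, each overlapping the next. The Egr2 call was lost in 8 of the 10 fits that left out 1 library (adjusted p up to 0.190), in which the difference itself stayed at 1.02 to 1.21; the exceptions were the 2 libraries that stood apart, without which the adjusted p was 0.00222 and 0.0187. Without both, the difference was 1.50 ± 0.18 (adjusted p = 1.54e-05).

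Egr1, Junb and Fos had differences of the same sign that did not pass the test. They were 0.90 ± 0.34 for Egr1 (edgeR adjusted p = 0.202), 0.69 ± 0.29 for Junb (0.241) and 0.65 ± 0.24 for Fos (0.169). Without the 2 libraries that stood apart all 3 were called, at 1.30 ± 0.18 for Egr1 (adjusted p = 0.000888), 0.75 ± 0.15 for Junb (0.00372) and 0.84 ± 0.17 for Fos (0.00247), in a fit that called 19.3% of all genes. The remaining 6 genes lay between -0.39 ± 0.61 for Fosb and 0.46 ± 0.41 for Fosl1 with all libraries and gave no call in either setting. The sign for Egr3 turned from -0.33 ± 0.59 to 0.41 ± 0.51.

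**Figure D3:**
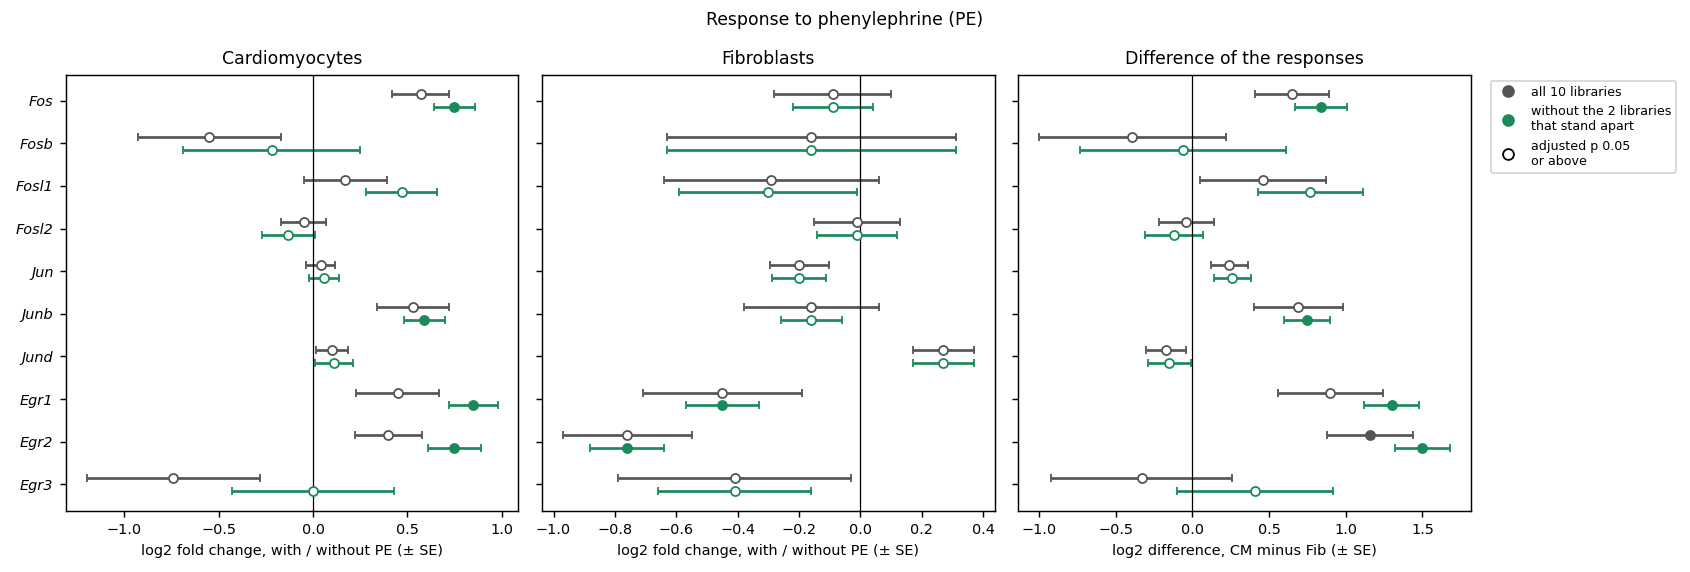
Log2 response to phenylephrine (± SE) in cardiomyocytes and in fibroblasts, and the difference of the 2 responses, for each gene with all 10 libraries (grey) and without the 2 that stood apart (green); filled points passed the edgeR test. Fos, Junb, Egr1 and Egr2 lie right of 0 in cardiomyocytes and pass the test there only in green, while Egr2 lies left of 0 in fibroblasts.

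Ratios of raw counts within a library do not depend on the scaling, and they set the make-up of AP-1 transcripts apart between the cell types. Since gene lengths were not used, a ratio is compared between libraries and not read as a ratio of molecules. Jun to Junb was 2.56 to 3.61 in cardiomyocytes in serum-free medium and 1.83 to 2.71 with phenylephrine, against 0.720 to 0.787 and 0.667 to 0.810 in fibroblasts. The cell types did not overlap, and the 2 cardiomyocyte groups did. Fosl1 to Fosl2 was 0.786 to 1.02 and 0.664 to 1.34 in cardiomyocytes without and with phenylephrine, against 0.188 to 0.282 and 0.156 to 0.227 in fibroblasts. Fos to Fosl2 was 2.13 to 2.28 in cardiomyocytes in serum-free medium and 2.29 to 4.45 with phenylephrine, against 1.17 to 1.34 and 1.13 to 1.25 in fibroblasts. In Fos to Fosl2 the lowest treated cardiomyocyte library, replicate 1, sat at the edge of the untreated range. Egr1 to Jun ran the other way, at 0.301 to 0.580 and 0.486 to 0.624 in cardiomyocytes and 1.51 to 1.55 and 1.24 to 1.35 in fibroblasts. Egr1 to Egr2 was 6.27 to 6.81 and 6.54 to 6.99 in cardiomyocytes and 4.36 to 5.74 and 5.97 to 6.52 in fibroblasts, so these 2 genes kept a narrower ratio than the other pairs named.

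**Figure D4:**
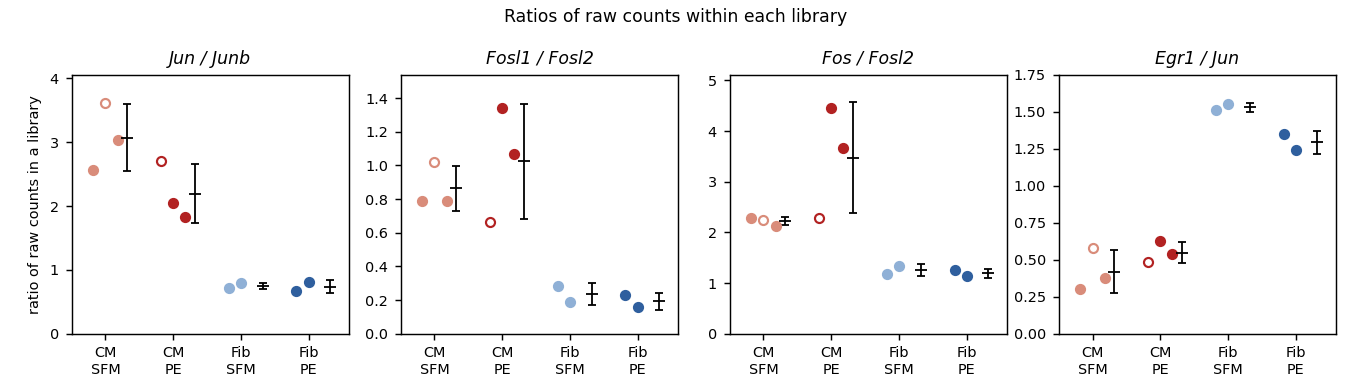
Ratio of raw counts of 4 gene pairs in each library, by group; the black dash and bar are the mean and SD, and open circles are the 2 cardiomyocyte libraries that stood apart. Jun to Junb is 1.83 or more in all cardiomyocyte libraries and 0.810 or less in all fibroblast libraries, and Egr1 to Jun is 1.24 or more in fibroblasts and 0.624 or less in cardiomyocytes.

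Other genes of the pathway were compared between the cell types in the same way. Of 12 listed leucine zipper partners (Atf, Batf, Jdp2 and Maf genes), 9 were tested, and 2 were higher and 4 lower in cardiomyocytes in serum-free medium. Atf3, a stress-induced repressor that pairs with Jun, averaged 38.5 ± 5.17 CPM in cardiomyocytes and 10.5 ± 2.32 CPM in fibroblasts (log2 1.87 ± 0.19, edgeR adjusted p = 1.10e-05). Jdp2, a repressor of AP-1, went the other way at 20.3 ± 1.35 and 59.0 ± 1.39 CPM (log2 -1.54 ± 0.095, adjusted p = 6.42e-08). Of the corepressors that bind Egr proteins, Nab2 was lower in cardiomyocytes (log2 -0.95 ± 0.072) and Nab1 was not called (0.04 ± 0.058). Of 8 upstream factors, 4 were higher and 3 lower. Mef2a, a muscle transcription factor, stood at log2 1.29 ± 0.060, and Elk3, a ternary complex factor that works with serum response factor, at -0.67 ± 0.096. Of 14 MAP kinase cascade genes, 2 were higher, among them Map2k7 (0.55 ± 0.080), and 3 lower, among them Mapk3, which encodes ERK1 (-0.57 ± 0.058). Of 26 other immediate early genes, 9 were higher, led by Btg2 (log2 2.72 ± 0.13) and Homer1 (2.12 ± 0.11), and 13 were lower, among them Klf2 (-2.84 ± 0.21) and Klf4 (-1.72 ± 0.096). These shares stand beside 66.1% called over all genes. The MAP kinase share was lower than that, and that of the leucine zipper partners was about equal. Those of the upstream factors and other early genes were higher. With lists this small, none is read as a result about the pathway.

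Genes known as targets of the 2 families leaned in different directions between the cell types. Of 15 AP-1 targets tested, 12 were higher and 1 lower in cardiomyocytes in serum-free medium, with a median log2 difference of 1.38 against 0.02 over all genes. Over all genes, 66.1% were called in that medium, 34.5% higher and 31.7% lower. Among the 12 were Il6 (0.664 CPM in cardiomyocytes and 0.256 in fibroblasts) and Hmga2 (1.66 and 0.411 CPM). Both passed the count filter through the cardiomyocyte libraries, so they could hardly have been called lower. The target lists were chosen with earlier results of these data known, so the lean is a description. Spp1 (osteopontin) averaged 201 ± 25.8 and 15.2 ± 3.25 CPM (log2 3.73 ± 0.18, edgeR adjusted p = 5.08e-08). Mmp12 (macrophage elastase) averaged 72.6 ± 10.1 and 7.77 ± 2.27 CPM (log2 3.22 ± 0.27), and Plau (urokinase) 12.2 ± 2.84 and 1.29 ± 0.390 CPM (log2 3.24 ± 0.27). All 8 leukocyte markers were also higher in cardiomyocytes. Their summed level was 128 to 154 CPM in cardiomyocytes in serum-free medium and 17.4 to 27.9 CPM in fibroblasts, and 1 of the 8 was at 0 in 1 fibroblast library. The part of those cells in the target result was not tested. Of 10 Egr targets, 1 was higher and 8 lower in cardiomyocytes, with a median of -0.82. F3 (tissue factor) averaged 14.6 ± 1.13 and 90.3 ± 34.7 CPM (log2 -2.63 ± 0.24, adjusted p = 1.24e-05), Fgf2 stood at log2 -2.31 ± 0.23, and the growth factor gene Pdgfa at -0.80 ± 0.073. Of the 8 fibroblast markers, 7 were lower in cardiomyocytes too, and their part in it was not tested either. With phenylephrine the counts were 12 higher and 1 lower of 15 AP-1 targets, and 1 higher and 7 lower of 10 Egr targets. Of all genes, 65.0% were called with phenylephrine, 33.7% higher and 31.2% lower. The remaining marker lists also moved with cell type. In serum-free medium, 7 endothelial markers summed to 57.2 to 70.2 CPM in cardiomyocytes and 21.7 to 26.5 CPM in fibroblasts, 8 epicardial markers to 210 to 248 and 74.9 to 81.4 CPM, and 8 smooth muscle markers to 2775 to 4858 and 11344 to 11357 CPM. Of 6 endothelial markers tested in serum-free medium, 5 were higher in cardiomyocytes and 1, Tek, was lower. Tek averaged 22.9 CPM in fibroblasts in that medium, where the whole list averaged 24.1 CPM. Cdh5 (0.181 CPM), Kdr (0.129), Vwf (0.284) and Emcn were near or at 0 there. They passed the count filter through the cardiomyocyte libraries, so they could be called only higher. The endothelial marker Cldn5 was at 0 in all 10 libraries and Emcn at 0 in the fibroblasts.

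With phenylephrine in cardiomyocytes, the partner, Nab, upstream factor, MAP kinase and Egr target lists had 0 calls with edgeR in either direction. Ier3, an early gene linked to cell survival, was higher with phenylephrine at 96.5 ± 0.900 and 122 ± 2.21 CPM (log2 0.34 ± 0.048, edgeR adjusted p = 0.00770). Klf9 was higher as well (0.31 ± 0.063, adjusted p = 0.0281), while Btg1 (-0.31 ± 0.074, adjusted p = 0.0461) and the kinase gene Sgk1 (-0.72 ± 0.17, adjusted p = 0.0476) were lower. Those were the 4 calls among 26 early genes, beside 3.63% of all genes. Of 15 AP-1 targets, Timp1, an inhibitor of matrix metalloproteinases, was higher (0.55 ± 0.088, adjusted p = 0.0140), and 3 were lower: Mmp12 (-1.18 ± 0.20, adjusted p = 0.0236), Plau (-0.81 ± 0.18, adjusted p = 0.0381) and Spp1 (-0.62 ± 0.13, adjusted p = 0.0371). Leukocyte markers summed to 128, 154 and 149 CPM without and 130, 105 and 105 CPM with the drug, and 2 of 8 were called lower; their part in the result was not tested. All 8 calls stood without the 2 libraries that stood apart. Of 19 alternatives, Ier3 was called in 17, Timp1 in 15, Klf9 and Mmp12 in 11, Plau and Spp1 in 10, Btg1 in 8 and Sgk1 in 7. A fit on the compared groups alone called Ier3 and none of the other 7. Left out singly, libraries ended the Btg1 call in 9 of 10 fits and the Sgk1 call in 8, those of Klf9, Mmp12, Plau and Spp1 in 6, and those of Ier3 and Timp1 in 2.

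In fibroblasts the 26 other early genes gave 4 calls, beside 3.83% of all genes. Zfp36l1, whose protein binds AU-rich messages and hastens their decay, averaged 61.3 ± 14.9 and 137 ± 7.50 CPM (log2 1.16 ± 0.12, edgeR adjusted p = 0.000764). Klf10, an early gene induced by TGF-beta, was also higher (0.44 ± 0.11, adjusted p = 0.0440). Ptgs2 (cyclooxygenase-2) was lower (-0.92 ± 0.15, adjusted p = 0.00781), as was Zfp36, a relative of Zfp36l1 (-0.42 ± 0.073, adjusted p = 0.00941). Zfp36l1 was called in all 19 alternatives, Ptgs2 in 17, Zfp36 in 15 and Klf10 in 11. Responses of 3 early genes differed between the cell types: Ier3 (0.57 ± 0.077, adjusted p = 0.00440), Zfp36 (0.62 ± 0.094, adjusted p = 0.00689) and Zfp36l1 (-0.95 ± 0.16, adjusted p = 0.0121), beside 3.25% of all genes. Ier3 held in all 19 alternatives. Leaving out replicate 1 or 2 of the fibroblasts with phenylephrine ended the call for Zfp36 (adjusted p = 0.0540 and 0.0573) and for Zfp36l1 (0.0540 and 0.0805).

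**Figure D5:**
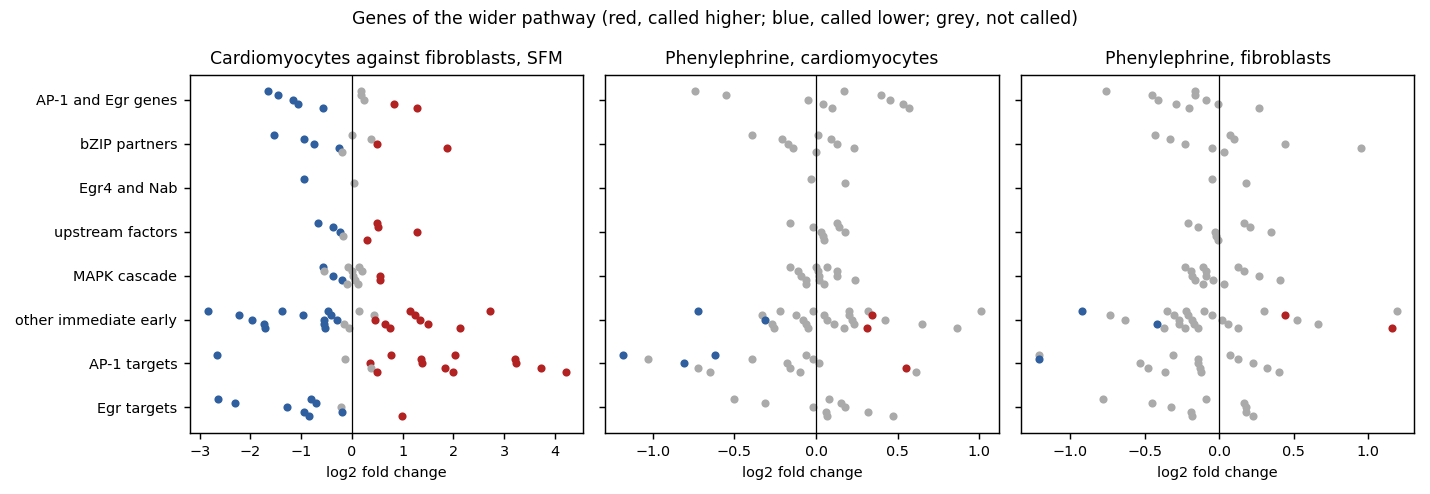
Log2 fold change of each tested gene of the 10 AP-1 and Egr genes and of 7 wider lists, for cardiomyocytes relative to fibroblasts in serum-free medium and for phenylephrine in each cell type; red is called higher, blue called lower and grey not called. AP-1 targets lie mostly right of 0 and Egr targets mostly left in the first panel, and nearly all points are grey in the other panels.

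Pearson coefficients of log2 CPM over the 10 libraries are given as a description. The libraries form 2 cell types, so the coefficient can follow that split for genes that differ between them. Fosb and Jund were not called between the cell types in either medium. The tested genes that ran most alike were found among 12548 genes with settled names. For Jun they were Fam126b (0.993) and Hfe2 (0.993), for Junb Rap1gap (0.974) and Praf2 (0.969), and for Jund F8a1 (0.923) and Irf2bp2 (0.907). For Fos they were C2cd2l (0.966) and Bcr (0.961), for Fosb Ttc39a (0.810) and Timm10b (0.797), for Fosl1 Pkm (0.985) and Mark3 (0.985), and for Fosl2 Stk10 (0.996) and Mmp19 (0.995). For Egr1 they were Arhgef17 (0.959) and Egr2 (0.952), for Egr2 Rras (0.974) and Vcl (0.963), and for Egr3 Spns2 (0.975) and Sptbn4 (0.971). Egr1 with Egr2 was the only such pair within the 10 genes, and its coefficient was 0.91 after each group was centred on its mean. Centred in that way, Egr1 with Egr3 stood at 0.93 and Egr2 with Egr3 at 0.82. In untreated cardiomyocytes all 3 Egr genes were highest in replicate 2, which stood apart. Its part in these coefficients was not tested.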

How the data were processed

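RNA of 10 libraries was sequenced from TruSeq libraries, all 10 on 1 lane, per the labels' protocols. Per the submitters' processing notes, the tools were cutadapt (no version), TopHat2 2.0.10, HTSeq 0.6.1p1 and DESeq2 1.6.3, with the build Rnor_6.0; the annotation release and strand setting are not given in the sources used here. The deposited table holds whole-number read counts per gene symbol, raw per the file headers and the values; 10 further per-library columns were not used. Library totals, 18048944 to 22794744, set the precision; floors and intervals cover counting error or library spread only.

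Genes were kept with filterByExpr (minimum count 10, total 15), scaled by TMM and fitted with 1 coefficient per group over all 10 libraries in edgeR 4.0.16 (robust quasi-likelihood test, R 4.3.3). The 5 contrasts were each adjusted by Benjamini-Hochberg over 13869 genes, with calls below 0.05; the SE is the log2 change divided by the square root of F. The fit was tested on simulated data. Alternatives were relative log expression factors, total count alone, DESeq2 1.42.0, limma-voom 3.58.1, no filter, at least 10 CPM in 2 libraries, the compared groups alone, a replicate block, each library left out, and both libraries that stood apart left out.

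The 10 genes, the wider lists, the markers and the choice of the 2 libraries were made with earlier results of these data known. Named genes are all 10, up to 4 of smallest adjusted p per list and comparison, and the 2 most alike per gene by Pearson correlation of log2 CPM (prior count 2). Promoters come from RefSeq on GRCr8, matched by symbol (16885 of 28522 symbols matched), and are credited to that build, not to Rnor_6.0. Some results on single listed genes are not reported here.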

Additional observations from a re-analysis of the deposited data

Results flagged for a closer look

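These 4 genes were picked out because the response to phenylephrine differed between the cell types by the edgeR test of that difference. For Egr2 it was 1.16 on the log2 scale (cardiomyocytes minus fibroblasts, adjusted p = 0.0477), from a log2 change of 0.40 in cardiomyocytes and -0.76 in fibroblasts, neither called on its own. For Ier3 it was 0.57 (adjusted p = 0.00440), from 0.34 and -0.23. For Zfp36 it was 0.62 (adjusted p = 0.00689), from 0.20 and -0.42. For Zfp36l1 it was -0.95 (adjusted p = 0.0121), from 0.22 and 1.16. Ier3 was called in cardiomyocytes but not in fibroblasts (edgeR adjusted p = 0.0621). Zfp36 and Zfp36l1 were called in fibroblasts but not in cardiomyocytes (0.0832 and 0.241). Treated and untreated libraries did not overlap in either cell type for Ier3, Zfp36 and Zfp36l1, and for Egr2 they overlapped in cardiomyocytes. Such a lack of overlap held for 23.0% of all genes in cardiomyocytes and 54.4% in fibroblasts. The difference for Egr2 was the least stable, called in 10 of 19 alternatives and in 2 of the 10 fits that left out 1 library. The differences for Zfp36 and Zfp36l1 each lost their call when either fibroblast library with phenylephrine was left out, and that for Ier3 held in all 19 alternatives.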

How the results depend on the processing

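All 12 cell type calls among the 10 genes, 7 in serum-free medium and 5 with phenylephrine, were called in the same direction in every alternative that tested the gene. The filter of at least 10 CPM in 2 libraries tested 6 of the 10 and so gave 1 higher and 3 lower in serum-free medium, 0 lower with phenylephrine and 0 for the difference of responses (Egr2, adjusted p = 0.0566). Over the 10 genes and all alternatives, 862 values kept their direction and side of the threshold, 36 came to pass it, 9 ceased to and 23 changed sign; for other named genes these were 2235, 57, 86 and 10. No sign change touched a called value.

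A percentage in brackets is the share of all genes called in the same setting, in either direction. For phenylephrine in cardiomyocytes, DESeq2 called 2 of the 10 higher (7.41%), and the fit without a filter called 1 (Fos, 3.08%). The replicate block called 1 (Egr1, edgeR adjusted p = 0.0468, 1.41%). Without the 2 libraries that stood apart, 4 were called (25.3%). In fibroblasts, DESeq2 (5.91%), limma-voom (4.06%), no filter (2.94%) and the replicate block (1.62%) each called 1 lower (Egr2). The fit without the 2 libraries called 2 lower (14.9%), and the compared groups alone called 1 higher and 2 lower (10.2%). For the difference, 2 were called with the replicate block (Egr1 and Egr2, 1.43%) and 4 without the 2 libraries (19.3%). Leaving out single libraries gave 0 to 3 higher in cardiomyocytes, 0 to 1 lower in fibroblasts and 0 to 2 for the difference. The replicate block changed no other call of the 10 genes. Deviations of same-numbered libraries from their group means correlated at -0.22, -0.10 and 0.02 in cardiomyocytes and at -0.04 in fibroblasts. With 2 fibroblast libraries a group, such correlations have the same size by construction, whichever libraries are paired. The cardiomyocyte values include the 2 libraries that stood apart. Whether replicate numbers mark shared cultures therefore cannot be told from these values.

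Over all genes, those called higher and lower with phenylephrine in cardiomyocytes (248 and 255) became 515 and 453 with DESeq2, 50 and 41 with the compared groups alone, 91 and 104 with the replicate block, and 1820 and 1666 without the 2 libraries. Those in fibroblasts (286 and 245) became 731 and 575 with the compared groups alone, 130 and 95 with the replicate block and 1030 and 1026 without the 2 libraries, with 376 lower in DESeq2. For the difference (226 and 225) the counts were 427 and 363 with DESeq2, 93 and 105 with the replicate block and 1440 and 1217 without the 2 libraries. Leaving out single libraries gave 20 to 1274 higher and 11 to 1097 lower in cardiomyocytes, 73 to 466 and 39 to 453 in fibroblasts, and 27 to 718 and 40 to 572 for the difference. With total count alone, 396 were lower in cardiomyocytes and 380 for the difference. The share called higher then moved from 49.3% to 31.1% in cardiomyocytes, from 53.9% to 66.8% in fibroblasts and from 50.1% to 29.8% for the difference. The cause of these shifts was not tested.

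Values near 0 changed sign in places. With total count alone these were Jund between cell types with phenylephrine (-0.01), Jun in cardiomyocytes (-0.01), Fosl2 in fibroblasts (0.03), and Nab1 (-0.07) and Nab2 (-0.08) for the difference. Nab2 also turned at 10 CPM (-0.01), Fosb in fibroblasts with limma-voom (0.03), and, without the 2 libraries, Fosb between cell types in serum-free medium (-0.03) and Egr3 for the difference (0.41). Leaving out single libraries, Fosb ranged from -0.40 to 1.13 between cell types in serum-free medium, from -0.74 to 0.79 in fibroblasts and from -1.34 to 0.18 for the difference, and Jund from -0.05 to 0.05 between cell types with phenylephrine. In cardiomyocytes Fosl1 ranged from -0.02 to 0.33, Fosl2 from -0.15 to 0.00 and Jun from -0.02 to 0.09. In fibroblasts Fos ranged from -0.19 to 0.03, Fosl1 from -0.62 to 0.02 and Fosl2 from -0.03 to 0.01. For the difference Egr3 ranged from -0.68 to 0.29, Fosl2 from -0.14 to 0.01, Nab1 from -0.01 to 0.05 and Nab2 from -0.06 to 0.07. Counts of 8 to 62 a library limit Fosb and Egr3.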
